A study of Mus musculus with 51 samples.

Results

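The 9 genes described here are Csf1r, Ccr2, Cx3cr1, Fn1, Ly86, Cd68, Basp1, App and Plbd1, followed as monocyte and macrophage genes through neutrophil cultures and sorted neutrophils of the mouse. They are 9 of the 50600 genes in the count tables and were taken by name. Some of them were picked because they were lower in knockout lines, so every knockout against wild-type value below describes the genes and carries no test. The response to zymosan within a genotype and the differences between tissues were tested, although the responses share their DMSO libraries with the choice of genes.

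The cultures were ER-Hoxb8 neutrophils, which come from progenitors kept immature by an oestrogen-dependent Hoxb8 and differentiate once oestradiol is withdrawn. All groups, WT included, carried Hoxb8 and had been differentiated for 5 days with G-CSF and stem cell factor. They were then kept for 2 h with zymosan, a yeast cell wall preparation, at 50 µg/ml, or with the DMSO vehicle. Set 1 held cells labelled CEBPB-/-, JUNB-/- and WT, and set 2 held cells labelled IRF5-/-, RELB-/- and WT, each with zymosan and with DMSO. RUNX1-/- and KLF6-/- cells, with DMSO only, stand in a later table that repeats the set 2 libraries. Each of these groups had 2 libraries, and neither the making of the lines nor the number of clones is given in the sources used here. The tissue neutrophils were sorted from CX3CR1GFP Ly6GCre-tdTomato mice that received 100 µg zymosan in a 6-day-old dorsal air pouch 4 h before. There were 5 RNA libraries from the pouch exudate, 2 from the pouch membrane, 5 from blood and 3 from bone marrow, and 2 open chromatin libraries from each tissue. In such mice GFP stands in the Cx3cr1 locus, and how many alleles carried it is not given in the sources used here, so Cx3cr1 reads in these mice may under-represent the activity of its promoter.

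Monocytes and macrophages are the lineage nearest to neutrophils, and both arise from shared bone marrow precursors. Csf1r, the receptor for the growth factors CSF1 and IL-34, keeps monocytes and macrophages alive. Ccr2 leads inflammatory monocytes out of the bone marrow towards CCL2, and Cx3cr1 is the fractalkine receptor of patrolling monocytes and many tissue macrophages. Fn1 encodes the matrix protein fibronectin, Ly86 encodes MD-1, which pairs with the Toll-like receptor relative CD180, and Cd68 encodes a lysosomal glycoprotein. Basp1 is a membrane-bound signalling protein related in behaviour to the MARCKS proteins, App is the amyloid precursor protein, and Plbd1 is a lysosomal phospholipase B-like protein found in myeloid granules. Cd68, App, Basp1 and Plbd1 are therefore not exclusive to monocytes, and all 4 had reads in each of the 15 sorted neutrophil libraries.

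The promoter sequences of 3 of the genes are shown because their levels in the cultures contrast. App and Plbd1 stood at 1.98 CPM (counts scaled to library size) or less in every library of the knockout lines with DMSO. Cd68 with DMSO stayed within 2-fold of WT in all of them in CPM scaled with TMM, but not in TPM, which does not use TMM (both are explained below). Each window runs from 250 bases before to 50 bases after the RefSeq start (GRCm38.p6, given 5′ to 3′ on the gene's strand), and capitals mark matches to the motifs named after the sequences.
App, chr16:85173658-85173957, minus strand: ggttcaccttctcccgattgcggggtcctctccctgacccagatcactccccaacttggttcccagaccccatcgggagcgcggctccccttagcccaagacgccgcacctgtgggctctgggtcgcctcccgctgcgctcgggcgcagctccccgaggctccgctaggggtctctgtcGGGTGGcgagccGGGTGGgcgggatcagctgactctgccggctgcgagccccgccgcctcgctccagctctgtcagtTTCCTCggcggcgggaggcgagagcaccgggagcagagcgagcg
Plbd1, chr6:136661844-136662143, minus strand: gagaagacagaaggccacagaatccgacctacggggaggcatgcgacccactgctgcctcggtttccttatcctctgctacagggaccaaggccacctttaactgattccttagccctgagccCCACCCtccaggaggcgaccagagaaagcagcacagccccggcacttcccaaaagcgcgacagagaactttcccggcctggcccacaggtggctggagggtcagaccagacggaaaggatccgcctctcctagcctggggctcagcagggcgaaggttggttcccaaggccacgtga
Cd68, chr11:69666121-69666420, minus strand: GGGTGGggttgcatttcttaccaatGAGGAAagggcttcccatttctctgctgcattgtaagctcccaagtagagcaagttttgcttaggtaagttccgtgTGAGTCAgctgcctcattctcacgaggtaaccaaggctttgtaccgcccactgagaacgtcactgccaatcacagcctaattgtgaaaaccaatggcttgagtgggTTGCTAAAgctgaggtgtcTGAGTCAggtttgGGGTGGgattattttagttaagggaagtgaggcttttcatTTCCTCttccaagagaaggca
The motifs were searched on both strands. They were TTGCNNAA for C/EBP factors, TGANTCA for AP-1, to which JUNB belongs, GGANNTTCC for NF-kB, to which RELB belongs, GAAANNGAA for IRF factors, TGTGGT for RUNX, GGGTGG for KLF and GAGGAA for PU.1. The Cd68 window held 2 matches for AP-1, 1 for C/EBP, 2 for KLF and 2 for PU.1. The App window held 2 KLF matches and 1 PU.1 match, and the Plbd1 window held 1 KLF match. Among all 32851 promoters of the same length, 7.81% held the AP-1 letters, 10.8% the C/EBP, 4.26% the NF-kB, 8.56% the IRF, 16.8% the RUNX, 31.5% the KLF and 28.3% the PU.1 letters. The App window had a GC content of 71% with 30 CpG, the Plbd1 window 61.3% with 13 CpG and the Cd68 window 47.7% with 4 CpG, beside medians of 52.7% and 7 CpG over all promoters. Of the 7 members with a window (all but Csf1r and Fn1), Ccr2 and Ly86 held 1 IRF match each, Cx3cr1 and Basp1 held 1 RUNX and 1 KLF match each, and none held the NF-kB letters. A match is a run of letters, and no binding was measured at it.

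The count tables held 9.24 to 19.1 M (mega) assigned reads per tissue library, 19.4 to 32.4 M per library of set 1, and 24 to 34.3 M for the remaining cultures. Levels in CPM (counts scaled to library size) below use TMM, which assumes that most genes do not change, and are comparable only within a table. Neutrophil genes were high throughout: 10 of 10 markers had reads in every group, and their summed level with DMSO was 56400 to 57700 CPM in CEBPB-/- cells and 73700 to 80700 CPM in JUNB-/- cells, against 25900 to 27600 CPM in WT cells of set 1. It was 61500 to 63500 CPM in IRF5-/- cells and 51500 to 51800 CPM in RELB-/- cells, against 47400 to 49500 CPM in WT cells of set 2. In the later table it was 15400 to 15500 CPM in RUNX1-/- cells and 65200 to 68600 CPM in KLF6-/- cells, against 54400 to 56900 CPM in WT cells. The targeted transcripts were not all lower in the libraries labelled as knockouts, and counts over all exons do not test an edit. With DMSO, Junb (log2 change -0.85), Irf5 (-0.28) and Relb (-1.32) were lower than in WT, Cebpb was not called (0.05, edgeR adjusted p = 0.503), and Runx1 (1.38) and Klf6 (0.44) were higher in the libraries labelled as their knockouts.

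Per transcript length, the 9 genes covered a wide range in WT cells before any stimulus. In set 1 with DMSO, Csf1r stood at 685 and 733 TPM (reads per transcript length, scaled to the same sum in each library), Cd68 at 446.5 and 468, Basp1 at 177 and 188 and Ccr2 at 139.8 and 132.5 TPM. App followed at 55.6 and 60.0 TPM, Fn1 at 32 and 34.8, Plbd1 at 22.6 and 23.7, Cx3cr1 at 21.5 and 23 and Ly86 at 0.303 and 0.791 TPM. Only the neighbours Plbd1 and Cx3cr1 overlapped between the 2 libraries. In WT cells of set 2 the order of the top was Csf1r at 412 and 430.3, Basp1 at 216 and 215, Cd68 at 146 and 136 and App at 55.6 and 58.2 TPM. Below them stood Ccr2 at 36 and 37.1, Cx3cr1 at 26.3 and 24.5, Plbd1 at 14.6 and 15.6, Fn1 at 6.18 and 6.89 and Ly86 at 3.71 and 2.25 TPM. No neighbours in this order overlapped. Csf1r, Cd68, Ccr2, Fn1 and Plbd1 were lower in TPM in both libraries of set 2 than in those of set 1. The sets stand in separate count tables and cannot be compared by a test here.

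**Figure D1:**
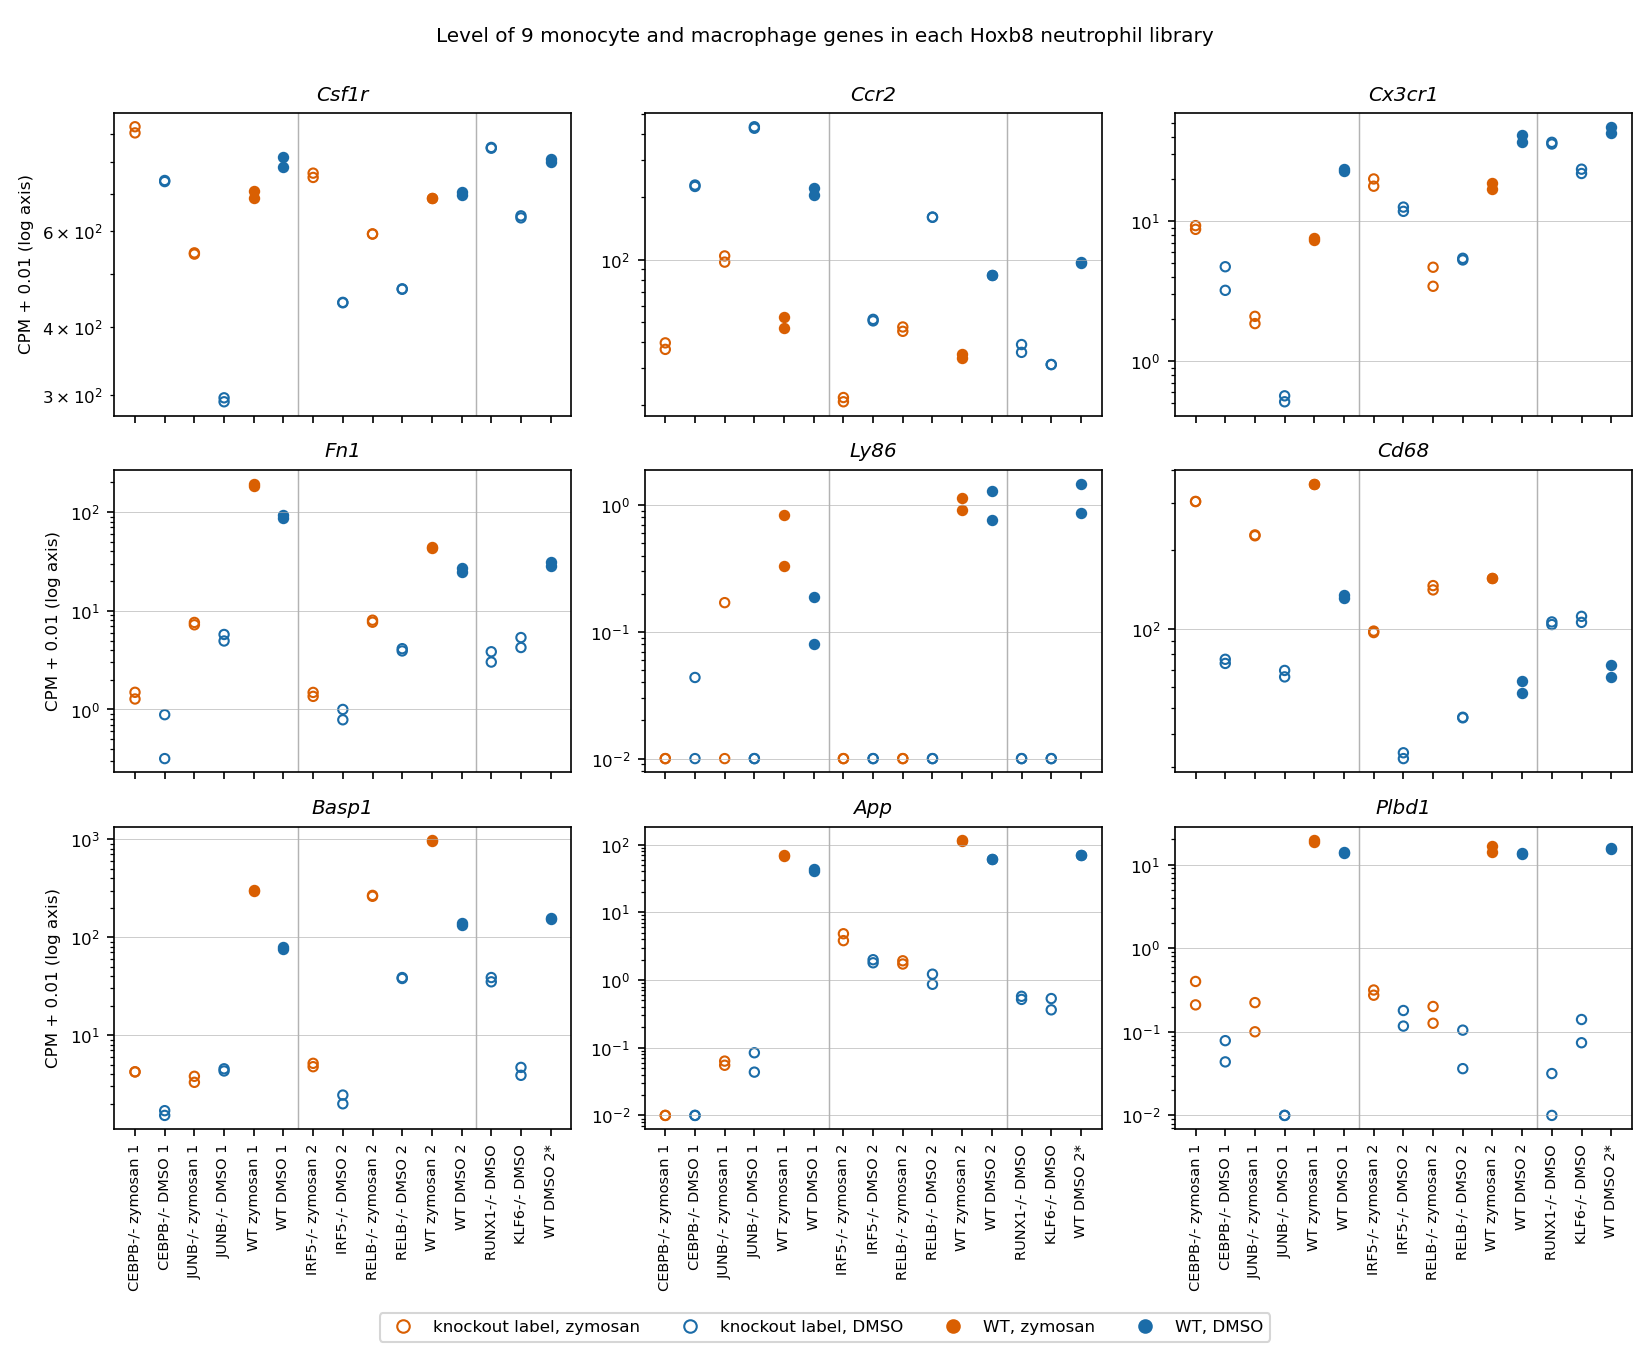
Level of each of the 9 genes in every culture library (CPM on a log axis, 1 point per library), with knockout lines left of WT and zymosan left of DMSO within a table. "WT DMSO 2*" is the WT DMSO group of set 2 on the scale of the later table. App and Plbd1 lie far below their WT points in every knockout line, while Csf1r stays above 290 CPM in every library.

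App and Plbd1 were far below WT in all 6 knockout lines. App had 0 reads in both CEBPB-/- libraries and 1 and 2 reads in the JUNB-/- libraries with DMSO, against 1729 and 1666 reads (40.7 and 42.8 CPM) in WT libraries. For CEBPB-/- cells this is at least 1040-fold lower, taking 3 reads over the group as the floor, and for JUNB-/- cells WT was 789-fold higher, with an exact 95% counting interval of 270 to 3830. In set 2 with DMSO, App stood at 1.78 and 1.98 CPM in IRF5-/- and 0.853 and 1.21 CPM in RELB-/- cells, against 60.3 and 61 CPM in WT cells. In the later table it was at 0.506 and 0.564 CPM in RUNX1-/- and 0.352 and 0.521 CPM in KLF6-/- cells, against 69.3 and 70.1 CPM in WT cells. The log2 changes were -5.01 (SE 0.09), -5.89 (SE 0.10), -7.01 (SE 0.11) and -7.31 (SE 0.12) for IRF5-/-, RELB-/-, RUNX1-/- and KLF6-/- cells. No knockout library came near a WT library, with either treatment. With zymosan App had 0 and 0 reads in CEBPB-/-, 1 and 1 in JUNB-/-, 4.81 and 3.8 CPM in IRF5-/- and 1.71 and 1.91 CPM in RELB-/- cells, against 68.6 and 69.3 CPM in WT cells of set 1 and 115 and 114 CPM in WT cells of set 2.

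Plbd1 had 1 and 2 reads in CEBPB-/-, 0 and 0 in JUNB-/-, 6 and 4 in IRF5-/- and 4 and 1 in RELB-/- libraries with DMSO, against 591 and 553 reads in WT libraries of set 1 and 509 and 585 in those of set 2. RUNX1-/- libraries had 0 and 1 and KLF6-/- libraries 2 and 4 reads, against the same 509 and 585 WT reads. Plbd1 was therefore at least 389-fold lower in JUNB-/- cells, and WT was 276-fold higher than CEBPB-/- (exact 95% counting interval 94.2 to 1340) and 1430-fold higher than RUNX1-/- cells (257 to 56700). The intervals cover counting error only. The log2 changes in the other lines were -6.58 (SE 0.22) in IRF5-/-, -7.67 (SE 0.25) in RELB-/- and -7.26 (SE 0.26) in KLF6-/- cells. With zymosan Plbd1 stayed at 10 reads or fewer per group in CEBPB-/-, JUNB-/-, IRF5-/- and RELB-/- cells, against 405 and 542 reads in WT libraries of set 1 and 289 and 368 in those of set 2. In these bulk libraries fewer cells carrying a transcript and less transcript per cell cannot be told apart.

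Basp1 and Fn1 were also lower in every line, but with clear differences between lines. Basp1 stood at 1.68 and 1.5 CPM in CEBPB-/- and 4.3 and 4.52 CPM in JUNB-/- cells with DMSO, against 76.6 and 79.2 CPM in WT cells. In set 2 it was at 2.44 and 1.98 CPM in IRF5-/- and 38.7 and 37.9 CPM in RELB-/- cells, against 138 and 133 CPM in WT cells. In the later table it was at 38.8 and 35 CPM in RUNX1-/- and 4.67 and 3.88 CPM in KLF6-/- cells, against 159 and 153 CPM in WT cells. RELB-/- and RUNX1-/- cells kept more of the WT level (log2 changes -1.82 (SE 0.03) and -2.08 (SE 0.04)), whereas the log2 changes in CEBPB-/-, JUNB-/-, IRF5-/- and KLF6-/- cells were -5.61 (SE 0.09), -4.14 (SE 0.07), -5.94 (SE 0.06) and -5.18 (SE 0.06). With zymosan the WT level was much higher, and the log2 changes became -6.15 (SE 0.08) in CEBPB-/-, -6.4 (SE 0.07) in JUNB-/-, -7.61 (SE 0.05) in IRF5-/- and -1.86 (SE 0.02) in RELB-/- cells.

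Fn1 with DMSO stood at 0.876 and 0.308 CPM in CEBPB-/- and 4.93 and 5.75 CPM in JUNB-/- cells, against 87.3 and 92.8 CPM in WT cells. It was at 0.991 and 0.776 CPM in IRF5-/- and 3.91 and 4.12 CPM in RELB-/- cells, against 25 and 27 CPM in WT cells of set 2. It was at 3.01 and 3.84 CPM in RUNX1-/- and 5.35 and 4.24 CPM in KLF6-/- cells, against 28.7 and 31 CPM in WT cells of the later table. CEBPB-/- cells were the lowest against their WT, with a log2 change of -7.23 (SE 0.12), followed by IRF5-/- with -4.88 (SE 0.13) and JUNB-/- with -4.08 (SE 0.08). RUNX1-/-, RELB-/- and KLF6-/- cells were at -3.12 (SE 0.10), -2.7 (SE 0.09) and -2.64 (SE 0.10). The zymosan values lay close to these, at -7.11 (SE 0.11) in CEBPB-/-, -4.67 (SE 0.08) in JUNB-/-, -4.96 (SE 0.14) in IRF5-/- and -2.5 (SE 0.09) in RELB-/- cells.

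Ly86 was scarce even in WT cells. It had 0 reads in all IRF5-/- and RELB-/- libraries with either treatment, against 23 and 20 reads in WT libraries with zymosan and 49 and 32 with DMSO. It also had 0 reads in the RUNX1-/- and KLF6-/- libraries, so that with DMSO it was at least 26.3-fold lower in IRF5-/-, 27.1-fold in RELB-/-, 26.7-fold in RUNX1-/- and 26.2-fold in KLF6-/- cells. In set 1 the WT DMSO libraries themselves held only 3 and 7 reads, beside 1 and 0 in CEBPB-/- and 0 and 0 in JUNB-/- libraries, and Ly86 failed the filter on low counts there.

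Of the 3 chemokine and growth factor receptors, Cx3cr1 in CPM scaled with TMM was lower than in WT in all 6 lines with DMSO, by amounts that differed between lines. Total-count scaling turned the log2 change in RUNX1-/- cells to 0.02. In TPM these cells were above WT, at 30.5 and 31.3 TPM, against 26.3 and 24.5 TPM. Cx3cr1 with DMSO stood at 3.2 and 4.72 CPM in CEBPB-/- and 0.503 and 0.556 CPM in JUNB-/- cells, against 22.7 and 23.6 CPM in WT cells. It was at 12.6 and 11.8 CPM in IRF5-/- and 5.42 and 5.28 CPM in RELB-/- cells, against 41.1 and 37 CPM in WT cells. In the later table it was at 35.6 and 36.6 CPM in RUNX1-/- and 23.5 and 21.9 CPM in KLF6-/- cells, against 47.2 and 42.5 CPM in WT cells. The log2 changes ran from -5.44 (SE 0.17) in JUNB-/- through -2.86 (SE 0.08) in RELB-/-, -2.55 (SE 0.11) in CEBPB-/-, -1.68 (SE 0.07) in IRF5-/- and -0.98 (SE 0.06) in KLF6-/- to -0.31 (SE 0.06) in RUNX1-/- cells. With zymosan the distance was -1.93 in JUNB-/- and -2.16 in RELB-/- cells, and 0.27 in CEBPB-/- and 0.09 in IRF5-/- cells, where total-count scaling gives -0.31 and -0.09.

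Csf1r was high in all lines. With DMSO it stood at 737 and 741 CPM in CEBPB-/- and 292 and 297 CPM in JUNB-/- cells, against 783 and 817 CPM in WT cells. It was at 443 and 444 CPM in IRF5-/- and 469 and 469.6 CPM in RELB-/- cells, against 696 and 704.5 CPM in WT cells. RUNX1-/- cells were at 848 and 851 CPM and KLF6-/- cells at 633 and 638 CPM, against 801 and 809 CPM in WT cells. JUNB-/- cells were thus the only line more than 2-fold below WT, with a log2 change of -1.44 (SE 0.03), and those of the other lines lay between -0.66 in IRF5-/- and 0.08 in RUNX1-/- cells. With zymosan all 4 lines lay between -0.36 in JUNB-/- and 0.39 in CEBPB-/- cells, and the values above 0 in CEBPB-/- and IRF5-/- cells (0.39 and 0.14) become -0.19 and -0.04 with total-count scaling.

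Ccr2 was higher than in WT in some lines and lower in others. With DMSO it stood at 225 and 228 CPM in CEBPB-/- and 435 and 428 CPM in JUNB-/- cells, against 221 and 204 CPM in WT cells. It was at 50.7 and 51.6 CPM in IRF5-/- and 159.6 and 160.1 CPM in RELB-/- cells, against 84.2 and 84.1 CPM in WT cells. RUNX1-/- cells were at 35.8 and 39 CPM and KLF6-/- cells at 31.3 and 31.3 CPM, against 96.9 and 96.6 CPM in WT cells. The log2 changes were 1.02 (SE 0.04) in JUNB-/- and 0.93 (SE 0.03) in RELB-/- cells, 0.09 (SE 0.04) in CEBPB-/- cells (-0.26 with total-count scaling), and -0.72 (SE 0.04), -1.37 (SE 0.04) and -1.63 (SE 0.04) in IRF5-/-, RUNX1-/- and KLF6-/- cells. In TPM, which does not use TMM, the distance in JUNB-/- cells was smaller, at 153 and 160 TPM, against 139.8 and 132.5 TPM in WT cells. CEBPB-/- cells were below the same WT cells, at 94.8 and 98 TPM. RELB-/- cells were at 71.4 and 71.6 TPM, against 36 and 37.1 TPM in WT cells. The lines with a higher Ccr2 level were thus among those with the lowest Cx3cr1 level.

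In CPM scaled with TMM, Cd68 was within 2-fold of WT in every line with DMSO. With DMSO it stood at 73.9 and 76.6 CPM in CEBPB-/- and 65.7 and 69.5 CPM in JUNB-/- cells, against 131 and 134 CPM in WT cells. It was at 32.2 and 33.8 CPM in IRF5-/- and 45.9 and 46.2 CPM in RELB-/- cells, against 63.6 and 57.2 CPM in WT cells. RUNX1-/- cells were at 106 and 104 CPM and KLF6-/- cells at 111.5 and 106 CPM, against 73.1 and 65.7 CPM in WT cells. The log2 changes lay between -0.98 (SE 0.04) in JUNB-/- and 0.65 (SE 0.04) in KLF6-/- cells. In TPM, which does not use TMM, the distances passed 2-fold in some lines. Cd68 was at 168 and 177 TPM in CEBPB-/- and 124 and 140 TPM in JUNB-/- cells, against 446.5 and 468 TPM in WT cells. RUNX1-/- cells were at 326 and 319 TPM, against 146 and 136 TPM in WT cells.

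**Figure D2:**
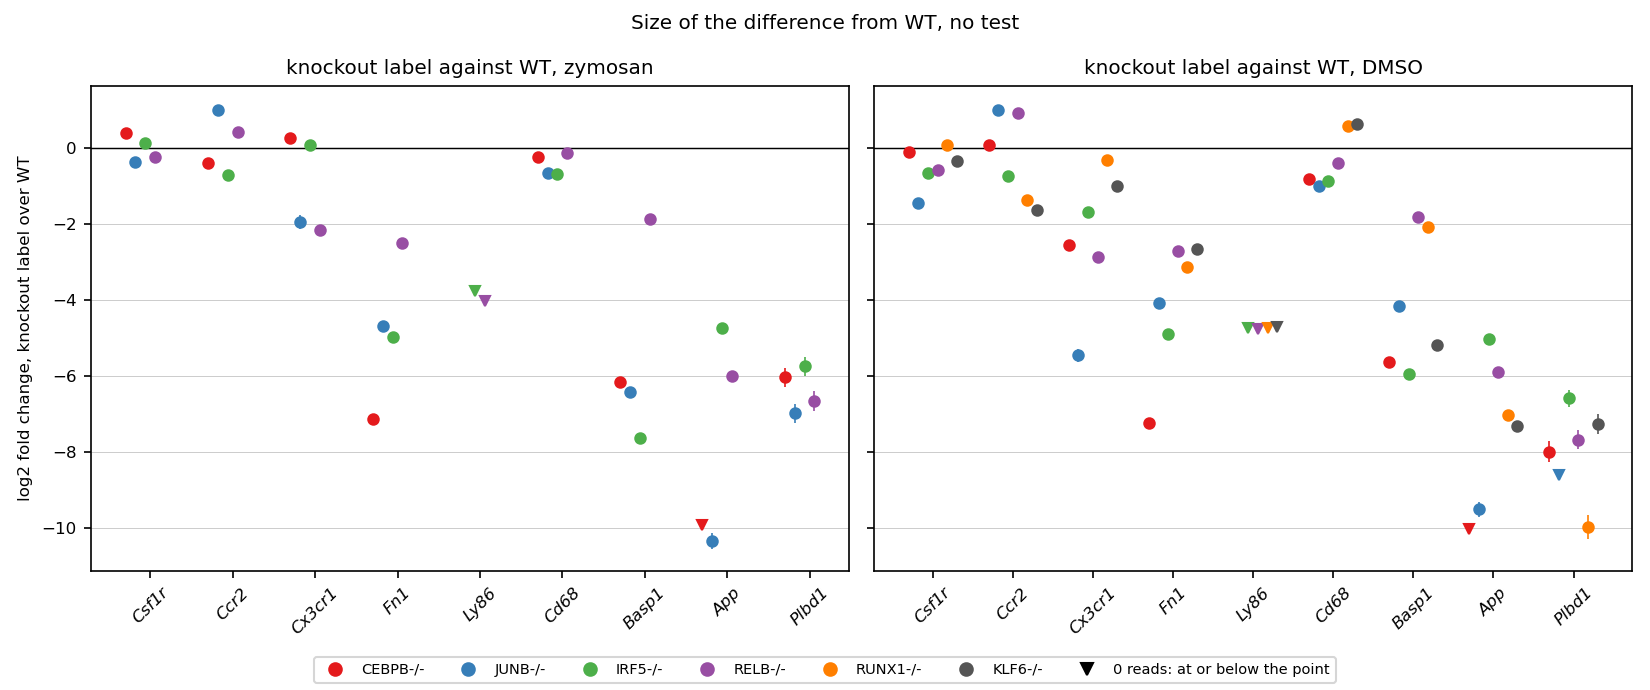
Log2 change of each gene in each knockout line against WT of the same table, with zymosan on the left and DMSO on the right. Bars are standard errors of the edgeR fit over 2 libraries per group, and triangles mark 0 reads in the knockout, where the true value is at or below the point. App, Plbd1, Basp1 and Fn1 lie below 0 in every line, while Csf1r, Ccr2, Cx3cr1 and Cd68 lie on both sides across the panels.

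Counted over all 9 genes, 5 were at least 2-fold lower with DMSO in CEBPB-/- cells (of 8 that passed the filter), 6 of 8 in JUNB-/-, and 6 of 9 in each of IRF5-/-, RELB-/-, RUNX1-/- and KLF6-/- cells. Among all genes tested, 20.8% were at least as much lower in CEBPB-/-, 26.5% in JUNB-/-, 15% in IRF5-/-, 12.2% in RELB-/-, 16.2% in RUNX1-/- and 17.2% in KLF6-/- cells. Since the genes were partly chosen for being lower, nothing is read from these counts. Markers of other cells moved in the same comparisons. The summed level of 6 eosinophil and mast cell markers with DMSO was 514 to 536 CPM in CEBPB-/- and 221 to 225 CPM in JUNB-/- cells, against 1640 CPM in WT cells, with Fcer1a at 0 in both lines and all 6 above 0 in WT. It was 651 to 659 CPM in IRF5-/- and 427 to 434 CPM in RELB-/- cells, against 3480 to 3540 CPM in WT cells, and 610 to 618 CPM in RUNX1-/- and 481 to 491 CPM in KLF6-/- cells, against 3990 to 4070 CPM in WT cells. Fcer1a was at 0 in all these lines too. The summed level of 5 platelet markers was 3.86 to 8.39 CPM in CEBPB-/- and JUNB-/- cells, against 39.5 to 40.2 CPM in WT cells, 4.7 to 6.34 CPM in IRF5-/- and RELB-/- cells, against 26.3 to 27.3 CPM in WT cells, and 37.2 to 39.9 CPM in RUNX1-/- and 4.27 to 4.36 CPM in KLF6-/- cells, against 30.3 to 31.4 CPM in WT cells. The summed level of 10 dendritic cell and MHC class II markers was 74.5 to 74.9 CPM in CEBPB-/- and 3.15 to 3.39 CPM in JUNB-/- cells, against 108 to 110 CPM in WT cells, and 41.4 to 43 CPM in IRF5-/- and 24.2 to 24.5 CPM in RELB-/- cells, against 92.7 to 95.1 CPM in WT cells. In the later table it was 402 to 403 CPM in RUNX1-/- and 50.8 to 52.3 CPM in KLF6-/- cells, against 107 to 109 CPM in WT cells. Ccr7 was at 0 in all these groups, and H2-Ab1 was at 0 in CEBPB-/-, JUNB-/- and IRF5-/- cells. Of 5 endothelial and keratinocyte markers, Cdh5, Kdr, Krt5 and Krt14 were at 0 in all 6 lines, and the sum, which there is Pecam1 alone, was 35.1 to 35.9 CPM in CEBPB-/- and 63.9 to 66.2 CPM in JUNB-/- cells, against 21.2 to 21.8 CPM in WT cells. It was 20.3 to 20.7 CPM in IRF5-/- and 29 to 30.3 CPM in RELB-/- cells, against 19.1 to 19.5 CPM in WT cells, and 176 to 179 CPM in RUNX1-/- and 13.6 to 14 CPM in KLF6-/- cells, against 21.9 to 22.4 CPM in WT cells. The part of these markers in the levels of the 9 genes was not tested.

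Other genes of the monocyte and macrophage lineage were lower more often than higher in every line. These 36 were listed from general knowledge of the lineage, with earlier results of these data known. Their summed level with DMSO was 15700 to 15900 CPM in CEBPB-/- and 17200 to 17500 CPM in JUNB-/- cells, against 13600 CPM in WT cells. It was 10900 CPM in IRF5-/- and 10400 CPM in RELB-/- cells, against 12700 CPM in WT cells. In the later table it was 11300 CPM in RUNX1-/- and 16800 to 17000 CPM in KLF6-/- cells, against 14600 CPM in WT cells. The sum was thus above WT in CEBPB-/-, JUNB-/- and KLF6-/- cells. Of the 35 that passed the filter, with DMSO 24 were lower and 8 higher in CEBPB-/-, 27 and 8 in JUNB-/-, 27 and 4 in IRF5-/-, 26 and 7 in RELB-/-, 23 and 11 in RUNX1-/- and 26 and 7 in KLF6-/- cells (edgeR quasi-likelihood test, adjusted p below 0.05 over all genes). Among all genes, 36.9% were called lower and 33.6% higher in CEBPB-/-, 41.1% and 35.4% in JUNB-/-, 29.6% and 35% in IRF5-/-, 27.3% and 32.1% in RELB-/-, 35.1% and 37.7% in RUNX1-/- and 33.9% and 30.0% in KLF6-/- cells. The median log2 change of the list was -1.55, -1.99, -1.43, -0.88, -0.48 and -1.07 in this order of lines, beside -0.05, -0.12, 0.04, 0.04, 0.02 and -0.04 over all genes tested. Called and at least 2-fold lower were 20, 21, 18, 17, 16 and 19 genes of the list, beside 18.9%, 24.4%, 14%, 11.1%, 15.1% and 15.4% of all genes. With total-count scaling the list had more lower than higher calls in each line, 27 against 7, 29 against 4, 32 against 3, 26 against 7, 21 against 13 and 28 against 6. Lower calls also prevailed among all genes in some lines with this scaling. Of all genes called, 23.3%, 20.4%, 42.9%, 52.5%, 70.8% and 33.4% were higher, in the same order of lines.

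Among the 4 genes of the list with the largest changes in a line, several came up in more than 1 line. Mrc1, the mannose receptor, had 29 reads in CEBPB-/- and 16 in JUNB-/- libraries, against 1607 in WT libraries of set 1, with log2 changes of -5.31 and -6.11. It had 0 reads in IRF5-/-, 7 in RELB-/- and 1 in KLF6-/- libraries, against 289 in WT libraries of set 2. Of the genes for the complement protein C1q, C1qa had 0 reads in IRF5-/-, RELB-/-, RUNX1-/- and KLF6-/- libraries, against 57 in WT libraries. Gpnmb, a lysosomal membrane glycoprotein, fell by 7.38 on the log2 scale in KLF6-/- cells, with 39 against 7457 reads.

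Some of the list differed in direction between lines. Ly6c2, a surface protein of classical monocytes, had 99 reads in RUNX1-/- libraries, against 12308 in WT libraries (log2 -7.27, edgeR adjusted p = 2.97e-73), and was higher in JUNB-/- cells by a log2 change of 2.87. Trem2, a lipid-sensing receptor of macrophages, was lower in KLF6-/- cells (log2 -6.82) and higher in RUNX1-/- cells (2.66). Lower in both of the lines given here was Mertk, a receptor for the clearance of dead cells. It had 4 reads in CEBPB-/- libraries, against 291 in WT libraries, and 0 in RUNX1-/- libraries, against 55.

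Counted in either direction with DMSO, the calls in this list and the next came to 57 genes in CEBPB-/- (70.5% of all genes called), 59 in JUNB-/- (76.4%), 53 in IRF5-/- (64.6%), 53 in RELB-/- (59.4%), 56 in RUNX1-/- (72.8%) and 54 in KLF6-/- cells (63.9%). With zymosan 59 were called in CEBPB-/- (67.9%), 58 in JUNB-/- (76.5%), 56 in IRF5-/- (60.4%) and 50 in RELB-/- cells (56.0%).

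Of 31 ligands, partners and relatives of the 9 genes, also listed with earlier results of these data known, 26 or 27 passed the filter. With DMSO, 16 were lower and 9 higher in CEBPB-/-, 16 and 8 in JUNB-/-, 12 and 10 in IRF5-/-, 13 and 7 in RELB-/-, 9 and 13 in RUNX1-/- and 14 and 7 in KLF6-/- cells. Total-count scaling gave 18 lower and 5 higher, 21 and 2, 13 and 7, 13 and 7, 6 and 18, and 15 and 5 in the same order. Csf1, the ligand of Csf1r, fell by 2.54 in CEBPB-/-, 3.9 in JUNB-/-, 2.01 in IRF5-/-, 1.88 in RELB-/- and 1.14 in KLF6-/- cells on the log2 scale, and rose by 0.55 in RUNX1-/- cells. Of the ligands of Ccr2, Ccl7 had 0 reads in JUNB-/- libraries, against 1673 in WT libraries (at least 569-fold lower), and Ccl2 fell by 7.47 in JUNB-/- and 2.66 in IRF5-/- cells. Marcks, the founding member of the protein group to which Basp1 is likened, had 0 reads in JUNB-/- libraries, against 5706 in WT libraries (at least 1940-fold lower), and fell by 4.29 in RELB-/- and 4.70 in KLF6-/- cells. Marcksl1 fell by 2.20 in RUNX1-/- cells. Cd180, the partner of the Ly86 protein, fell by 2.17 in KLF6-/- cells. The App relative Aplp2 fell by 2.10 in KLF6-/- cells, and Itgav, an integrin that binds fibronectin, rose by 2.11 in RUNX1-/- cells.

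**Figure D3:**
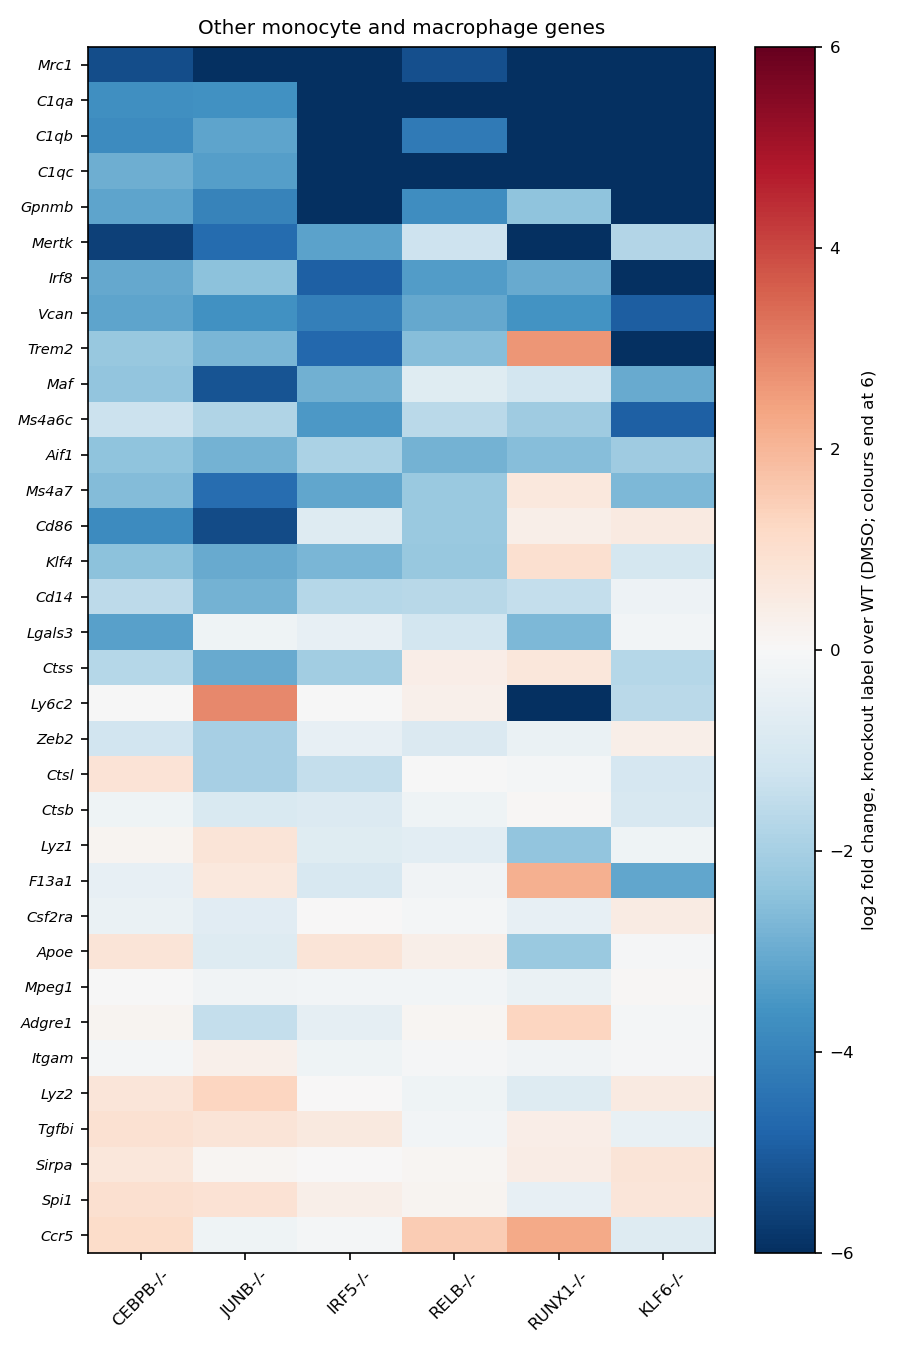
Log2 change against WT of the same table, with DMSO, for other monocyte and macrophage genes that passed the filter in every table (rows) in each of the 6 knockout lines (columns), with blue for lower and red for higher in the knockout. Mrc1, C1qa, C1qb, C1qc, Vcan and Irf8 are lower in all 6 lines, while Itgam, Mpeg1, Sirpa and Spi1 differ by less than 2-fold in each.

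Zymosan moved most of the 9 genes within WT cells. In WT cells of set 1, 5 of the 8 genes that passed the filter rose and 3 fell, beside 75.6% of all genes called in either direction, and in WT cells of set 2, 4 of 9 rose and 2 fell, beside 68.4% of all genes (edgeR quasi-likelihood test, adjusted p below 0.05 over all genes). With most genes called, nothing is read from the share of the 9. In the lines, 6 rose and 1 fell of 8 in CEBPB-/- (background 73.5%), 5 and 2 of 8 in JUNB-/- (73.2%), 6 and 1 of 9 in IRF5-/- (69.8%), and 5 and 2 of 9 in RELB-/- cells (72.7%). These changes are relative to most genes: with total-count scaling, the median change of all genes with zymosan moved to between -0.69 and -1.02 on the log2 scale, beside -0.09 to 0.05 with TMM.

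Cd68 rose in every genotype. It stood at 354 and 356 CPM with zymosan, against 131 and 134 CPM with DMSO, in WT cells of set 1, and at 156 and 156.5 against 63.6 and 57.2 CPM in set 2. The log2 change was 1.42 (SE 0.04) and 1.37 (SE 0.04) in WT, 2.02 (SE 0.04) in CEBPB-/-, 1.74 (SE 0.04) in JUNB-/-, 1.56 (SE 0.05) in IRF5-/- and 1.64 (SE 0.04) in RELB-/- cells, with the largest edgeR adjusted p at 9.62e-40. With total-count scaling it stayed above 0, between 0.50 and 1.08. Ccr2 fell in every genotype, to 47 and 53.2 CPM with zymosan, against 221 and 204 CPM with DMSO, in WT cells of set 1, and to 35.2 and 33.7 against 84.2 and 84.1 CPM in set 2. Its log2 change was -2.08 (SE 0.05) and -1.29 (SE 0.05) in WT, -2.56 (SE 0.05) in CEBPB-/-, -2.1 (SE 0.04) in JUNB-/-, -1.27 (SE 0.06) in IRF5-/- and -1.79 (SE 0.04) in RELB-/- cells, with the largest edgeR adjusted p at 6.5e-33. No library with zymosan overlapped a DMSO library of its genotype for either gene.

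Basp1 showed the largest rise in WT cells among the genes that passed the filter. It stood at 294 and 302 CPM with zymosan, against 76.6 and 79.2 CPM with DMSO, in WT cells of set 1 (log2 1.94, SE 0.04, adjusted p = 2.33e-43 with edgeR), and at 951 and 975 against 138 and 133 CPM in set 2 (log2 2.83, SE 0.03, adjusted p = 2.07e-80 with edgeR). RELB-/- cells, with a lower level throughout, stood at 262 and 267.5 CPM with zymosan, against 38.7 and 37.9 CPM with DMSO, a log2 change of 2.79 (SE 0.03). It rose from low levels in CEBPB-/- (1.4, SE 0.19) and IRF5-/- cells (1.16, SE 0.15, 0.23 and not called with total-count scaling). In JUNB-/- cells it was at 3.79 and 3.29 CPM with zymosan, against 4.3 and 4.52 CPM with DMSO, and the log2 change of -0.32 (SE 0.14) passed the test narrowly (edgeR adjusted p = 0.0417). Without zymosan replicate 2 this fall was -0.23 with an edgeR adjusted p of 0.296, and it was not called with DESeq2 (0.0758), without the filter (0.0538), with RLE factors (0.0538) or with the compared groups alone (0.122), while total-count scaling gave -1.

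Fn1 rose in WT cells, to 183 and 195 CPM with zymosan, against 87.3 and 92.8 CPM with DMSO, in set 1 (log2 1.07, SE 0.05, 0.37 with total-count scaling), and to 43.7 and 44.7 against 25 and 27 CPM in set 2 (log2 0.76, SE 0.07, but -0.11 with total-count scaling). Its log2 change was 0.96 (SE 0.12) in RELB-/-, 1.2 (SE 0.36) in CEBPB-/-, 0.48 (SE 0.13) in JUNB-/- and 0.68 (SE 0.28) in IRF5-/- cells, and total-count scaling turned the JUNB-/- and IRF5-/- values to -0.2 and -0.25 and left the RELB-/- and CEBPB-/- values at 0.07 and 0.27, not called. These calls in the lines rest on few reads. Without 1 library, the CEBPB-/- value became 0.54 (edgeR adjusted p = 0.18, DMSO replicate 2 left out) and the JUNB-/- value 0.27 (0.109, DMSO replicate 1 left out). For IRF5-/- cells the values became 0.5, 0.58 and 0.72 (edgeR adjusted p = 0.174, 0.181 and 0.064) without DMSO replicate 2, zymosan replicate 1 and zymosan replicate 2.

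App rose in WT cells, to 68.6 and 69.3 CPM with zymosan, against 40.7 and 42.8 CPM with DMSO, in set 1 (log2 0.72, SE 0.06) and to 115 and 114 against 60.3 and 61 CPM in set 2 (log2 0.92, SE 0.05), values that shrank to 0.02 and 0.04 and were not called with total-count scaling. From its low level it rose in IRF5-/- (1.2, SE 0.18, 0.26 and not called with total-count scaling) and RELB-/- cells (0.81, SE 0.23, but -0.07 with total-count scaling, and 0.57 with an edgeR adjusted p of 0.0521 without DMSO replicate 1). App stayed at 0 reads in CEBPB-/- and at 1 or 2 reads per library in JUNB-/- cells. Plbd1 stood at 18.5 and 19.5 CPM with zymosan, against 13.9 and 14.2 CPM with DMSO, in WT cells of set 1 (log2 0.44, SE 0.09, edgeR adjusted p = 3.03e-05), and its log2 change of 0.19 (SE 0.10) in set 2 was not called (edgeR adjusted p = 0.0998). Total-count scaling turned both to -0.26 and -0.69. Calls of Plbd1 in CEBPB-/- (8 against 3 reads) and JUNB-/- cells (6 against 0 reads) rest on too few reads to size a change, and the CEBPB-/- call was lost without DMSO replicate 1 (edgeR adjusted p = 0.0826), without zymosan replicate 2 (0.154) and with total-count scaling (0.115). Ly86 in WT cells of set 2 had 23 and 20 reads with zymosan, against 49 and 32 with DMSO, and was not called (log2 0, SE 0.39, edgeR adjusted p = 0.992, and -0.87 with total-count scaling).

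Cx3cr1 and Csf1r moved in opposite directions in WT and in some of the lines. Cx3cr1 fell in WT cells, to 7.36 and 7.55 CPM with zymosan, against 22.7 and 23.6 CPM with DMSO, in set 1 (log2 -1.63, SE 0.10, edgeR adjusted p = 1.12e-21) and to 16.9 and 18.7 against 41.1 and 37 CPM in set 2 (log2 -1.13, SE 0.08, edgeR adjusted p = 7.2e-23). It rose in CEBPB-/- (1.18, SE 0.15, 0.25 and not called with total-count scaling), JUNB-/- (1.88, SE 0.31) and IRF5-/- cells (0.64, SE 0.09, but -0.3 with total-count scaling). It fell in RELB-/- cells (-0.42, SE 0.14, edgeR adjusted p = 0.00575), where without zymosan replicate 1 it was -0.21 with an edgeR adjusted p of 0.29. All knockout libraries with zymosan in CEBPB-/-, JUNB-/- and IRF5-/- cells lay above their DMSO libraries, and all WT libraries with zymosan lay below theirs. The difference between the lines was not tested, since the genes were partly chosen on these lines.

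Csf1r fell slightly in WT cells of set 1, to 689 and 708 CPM with zymosan, against 783 and 817 CPM with DMSO (log2 -0.2, SE 0.03, edgeR adjusted p = 3.38e-07, but -0.07 and not called with RLE factors, 0.0632, or DESeq2, 0.0642). In WT cells of set 2 it was at 689 and 689 against 696 and 704.5 CPM and not called (log2 -0.02, SE 0.02, edgeR adjusted p = 0.318), although without zymosan replicate 1 or 2 it was called at -0.15 and -0.16, as it was with DESeq2 (-0.05, adjusted p = 0.0439), RLE factors (-0.05, 0.0271), no filter (-0.17), the compared groups alone (-0.09) and total-count scaling (-0.9). It rose in JUNB-/- cells (0.89, SE 0.03, 0.21 with total-count scaling), to 546 and 543 CPM with zymosan, against 292 and 297 CPM with DMSO. It also rose in IRF5-/- (0.77, SE 0.02), RELB-/- (0.33, SE 0.02) and CEBPB-/- cells (0.31, SE 0.03), but total-count scaling turned these to -0.17, -0.56 and -0.62.

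**Figure D4:**
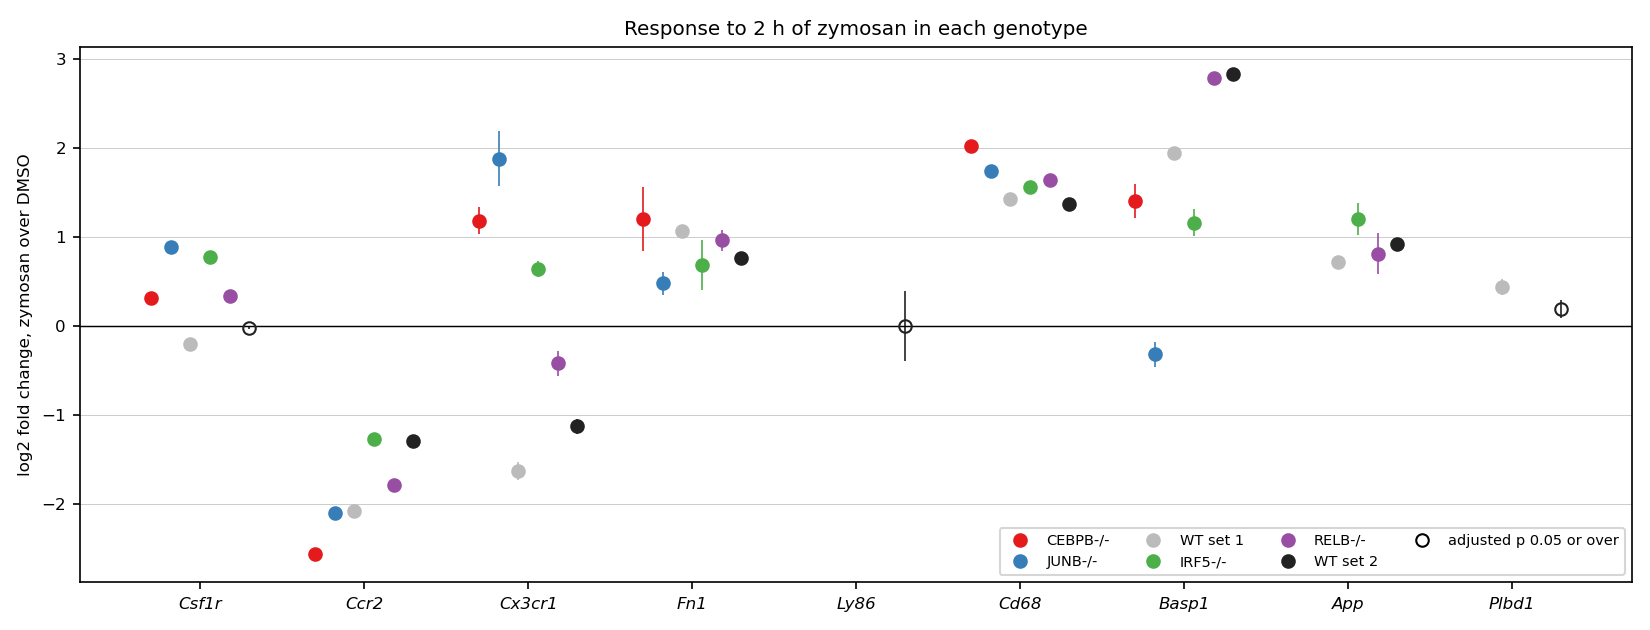
Log2 change with zymosan against DMSO for each gene in the 4 knockout lines and in WT cells of both sets, with standard errors of the edgeR fit (2 libraries per group). Filled points passed the test over all genes and open points did not, and groups with 10 reads or fewer with both treatments are left out; Cd68 lies above 0 and Ccr2 below 0 in every genotype, while Cx3cr1, Csf1r and Basp1 lie on both sides.

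With zymosan, 21 genes of the monocyte and macrophage list rose and 8 fell in WT cells of set 1, and 21 and 7 in those of set 2. In the lines 18 rose and 5 fell in CEBPB-/-, 16 and 6 in JUNB-/-, 20 and 4 in IRF5-/- and 20 and 5 in RELB-/- cells (edgeR). With total-count scaling the split turned round, to 12 higher and 17 lower in WT cells of set 1, 5 and 23 in set 2, 9 and 20 in CEBPB-/-, 9 and 16 in JUNB-/-, 8 and 13 in IRF5-/- and 7 and 19 in RELB-/- cells. That scaling moved all genes the same way. Of all genes called with it, 22.6%, 16.3%, 23.1%, 27.8%, 17.6% and 18.1% were higher, in the same order. Among all genes, 35.7% were called higher and 39.9% lower in WT cells of set 1, 36.3% and 32.1% in set 2, 35.1% and 38.4% in CEBPB-/-, 36.5% and 36.7% in JUNB-/-, 34.3% and 35.4% in IRF5-/- and 35.2% and 37.5% in RELB-/- cells with TMM. The median log2 change of the list was 0.52 and 0.32 in WT cells of set 1 and set 2, beside -0.07 and 0.05 over all genes.

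The leading responses kept their direction with both scalings. Cd14, the co-receptor for lipopolysaccharide, rose by log2 changes of 2.94 and 2.91 in WT cells of set 1 and set 2, 5.59 in CEBPB-/-, 5.5 in JUNB-/-, 4.73 in IRF5-/- and 4.26 in RELB-/- cells. Zeb2, a transcription factor of monocytes, rose by 2.71 and 2.31 in WT, 4.27 in CEBPB-/-, 4.21 in JUNB-/-, 2.90 in IRF5-/- and 3.23 in RELB-/- cells. Ms4a7 rose by 2.08 in WT cells of set 2, 4.17 in CEBPB-/-, 5.54 in JUNB-/-, 4.69 in IRF5-/- and 3.60 in RELB-/- cells. Apoe, the lipid carrier, fell by 2.09 in WT cells of set 1.

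Among the partners, 20 rose and 6 fell in WT cells of set 1, 17 and 5 in set 2, 19 and 3 in CEBPB-/-, 19 and 5 in JUNB-/-, 18 and 5 in IRF5-/- and 17 and 5 in RELB-/- cells, and total-count scaling gave 10 and 9, 8 and 15, 10 and 11, 13 and 11, 10 and 14, and 9 and 15. Ccl2, a ligand of Ccr2, rose by log2 changes of 2.72 and 3.16 in WT cells of set 1 and set 2, 4.47 in CEBPB-/-, 5.61 in JUNB-/-, 5.20 in IRF5-/- and 5.53 in RELB-/- cells. Csf1 rose by 1.83 in WT cells of set 2, 5.08 in CEBPB-/-, 4.79 in JUNB-/-, 3.43 in IRF5-/- and 3.23 in RELB-/- cells. Marcks rose by 1.73 and 2.15 in WT cells of set 1 and set 2, and Marcksl1 rose by 2.19 in WT cells of set 1, 3.74 in CEBPB-/-, 4.57 in JUNB-/-, 3.31 in IRF5-/- and 3.15 in RELB-/- cells. These values stayed above 0 with total-count scaling. The responses of the lines and of WT are given side by side, and the difference between them was not tested.

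Over the 14 culture groups, each set against WT with DMSO of its own table, Fn1, Basp1, App and Plbd1 followed each other most closely, with Pearson's r between 0.74 and 0.91. Cx3cr1 and Csf1r went together with r = 0.8, and Ccr2 went against Cd68 with r = -0.79. These correlations describe groups that share WT libraries and scaling, and the same values partly chose the genes. Among 8897 other genes, the one most like App was Ear1 (r = 0.966), of the eosinophil-associated ribonuclease family, followed by Gm8113 (0.965) and Ear6 (0.953), and the Ear genes are near-identical copies whose reads may be shared. Plbd1 was most like Mcm5 (0.977), Mcm3 (0.959), both parts of the replicative helicase, and Spns3 (0.957). Fn1 was most like the cell cycle kinase Cdk1 (0.922), Aldh9a1 (0.903) and Foxm1 (0.899), Basp1 like Gm4204 (0.9), Anp32e (0.886) and Fn1 (0.878). Cd68 was most like Hsd17b12 (0.97), Brwd1 (0.954) and Blvra (0.953), and Csf1r like Umps (0.913), Serpinb8 (0.902) and Lilra6 (0.901). Ccr2 was most like Arid5a (0.885) and Pot1a (0.884), and Cx3cr1 like Gm31718 (0.913), Gm15931 (0.891) and Lilra6 (0.869).

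In neutrophils taken from the animals the genes divided in another way. Cd68, App, Basp1 and Plbd1 were read in all 15 libraries, while Csf1r, Ccr2, Cx3cr1, Fn1 and Ly86 were at or near 0 in most of them. None of the 6 genes that passed the filter was called in any of the 6 tissue comparisons by edgeR (adjusted p below 0.05), where the background was 0.178% of all genes for exudate against bone marrow, 0.0162% for membrane and for blood against bone marrow, and 0 for the other 3. At an unadjusted p below 0.05, 963 to 2848 of the 12330 genes and 0 to 4 of the 6 members passed in a comparison. The biological coefficient of variation was 1.86 in this table, against 0.0278 or less in the culture tables, so changes must be very large to be called here. DESeq2 called 3 of the members in exudate against bone marrow, Csf1r (7.54, adjusted p = 0.0151), Cd68 (2.46, 0.0473) and Plbd1 (-3.45, 0.0219), and Csf1r in blood against bone marrow (9.66, 0.00388).

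Cd68 stood higher in the pouch libraries than in blood and bone marrow libraries, but edgeR called no tissue comparison of it. It stood at 805, 753.5, 804, 601 and 909 CPM in exudate and 623.5 and 855.5 CPM in membrane libraries, against 536, 324, 222, 383 and 111 CPM in blood and 3.9, 155.5 and 129.5 CPM in bone marrow libraries. All 7 pouch libraries lay above all 8 blood and bone marrow libraries. The log2 change was 3.01 (SE 0.95) for exudate against bone marrow (edgeR adjusted p = 0.11) and 1.29 (SE 0.72) for exudate against blood (0.335), and it rests in part on 1 bone marrow library at 3.90 CPM. Other markers differed between the same libraries: the summed level of 10 neutrophil markers was 84700 to 346000 CPM in exudate and 107000 to 154000 CPM in membrane libraries, against 204000 to 310000 CPM in blood and 234000 to 292000 CPM in bone marrow libraries. That of the 10 dendritic cell and MHC class II markers was 1.22 to 418 CPM in exudate and 180 to 252 CPM in membrane libraries, against 2.82 to 68.5 CPM in blood and 0.171 to 131 CPM in bone marrow libraries, with Ccr7 and Clec9a at 0 in membrane and Ccr7 and Flt3 at 0 in bone marrow libraries. Their part in the Cd68 level was not tested. App stood at 501, 148, 331, 424 and 240.5 CPM in exudate and 521 and 673 CPM in membrane libraries, against 485, 322, 156, 314 and 232 CPM in blood and 143, 113 and 133 CPM in bone marrow libraries. The membrane libraries lay above all others, and the bone marrow libraries below all others (membrane against bone marrow log2 2.2, SE 0.90, edgeR adjusted p = 0.372).

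Basp1 stood at 158, 54.6, 268, 202 and 79.2 CPM in exudate and 229.7 and 147 CPM in membrane libraries, against 136, 101, 11, 12.6 and 2.31 CPM in blood and 22.9, 7.32 and 19.3 CPM in bone marrow libraries. Exudate and bone marrow libraries did not overlap (log2 3.21, SE 1.35, edgeR adjusted p = 0.175). Both membrane libraries lay above all 5 blood libraries, which overlapped exudate and bone marrow libraries. Plbd1 went the other way, at 3.25, 195, 75.7, 56.3 and 153 CPM in exudate and 77.6 and 269.8 CPM in membrane libraries, against 68.2, 145, 311, 244 and 1196 CPM in blood and 1208, 397 and 627 CPM in bone marrow libraries. Every pouch library lay below every bone marrow library (exudate against bone marrow log2 -2.94, SE 1.01, edgeR adjusted p = 0.125).

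Csf1r had 0, 547, 186, 1 and 11 reads in the exudate and 0 and 146 in the membrane libraries, against 1623, 175, 265, 578 and 1 in blood and 0, 0 and 2 in bone marrow libraries. Blood thus held 2642 of its reads, 1623 of them in 1 library. The same blood library held 305 of the 319 Cx3cr1 reads of blood, beside 5 Cx3cr1 reads in all exudate libraries and 0 in membrane and bone marrow libraries. Ccr2 had 228 of its 229 exudate reads in 1 library and 5 reads in all blood libraries, with 0 in membrane and bone marrow libraries. Ly86 had 98 reads in 1 bone marrow library, beside 6 in all exudate libraries and 0 in membrane and blood libraries. Fn1 had no more than 37 reads in any library. Counts confined to 1 library cannot be read as a level of the tissue. Of the 36 other monocyte and macrophage genes, 33 had reads in exudate, 29 in membrane, 34 in blood and 31 in bone marrow libraries. Their summed level was 23100 to 35100 CPM in exudate and 24200 to 36500 CPM in membrane, against 8940 to 16500 CPM in blood and 18300 to 20700 CPM in bone marrow libraries. Their part in these levels was not tested.

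The tissue columns carry 2 tags in their names, 100 and 300, which the sources used here do not explain. Bone marrow libraries carry only the first and membrane libraries only the second, so these 2 tissues and the tag cannot be told apart. For exudate against blood, Cd68 had a log2 change of 0.99 within tag 100 and 1.36 within tag 300, beside 1.29 (SE 0.72) over all libraries, and Basp1 had 0.24 and 4.43, beside 1.54 (SE 1.03). Within tag 100, exudate against bone marrow gave 2.94 for Cd68 and -2.86 for Plbd1, close to the values over all libraries. None of these passed the test within a tag (edgeR adjusted p from 0.153).

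**Figure D5:**
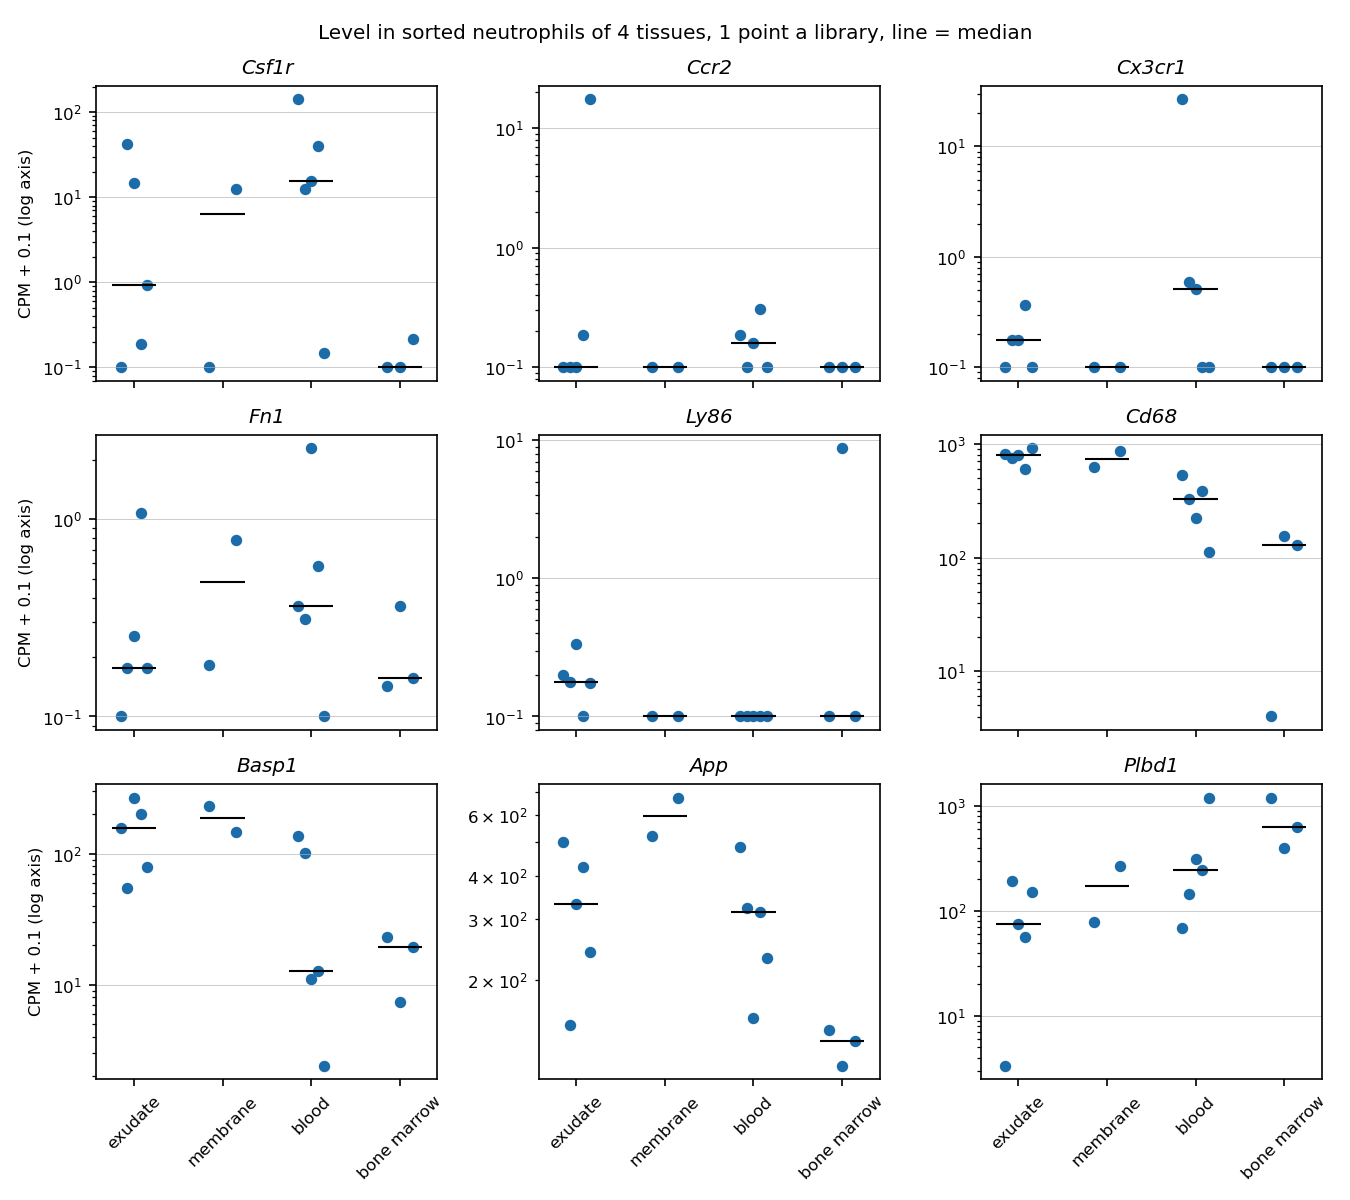
Level of each of the 9 genes in every tissue neutrophil library (CPM on a log axis, 1 point per library), in the order exudate, membrane, blood and bone marrow. Cd68 lies above 600 CPM in every exudate and membrane library, Plbd1 is highest in bone marrow and 1 blood library, and the points of Ccr2, Cx3cr1 and Ly86 lie at 0 in most libraries.

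Open chromatin was measured by ATAC-seq, which marks DNA that a transposase can enter, in 75000 sorted neutrophils per library. In the authors' deposited lists, 97 of 47164 merged open sites lay in 1 of the 9 genes or within 50000 bp of its start (mm10), and 21 of the 97 were in at least 1 of the authors' lists of sites that differ between tissues. Over the genome the share was 20.0%, so the members were near the background. Cx3cr1 had 11 of its 29 sites listed, Plbd1 3 of 11, App 2 of 23, Ccr2 2 of 11, Csf1r 2 of 5 and Basp1 1 of 3, while none of the 9 sites at Cd68, the 4 at Ly86 and the 2 at Fn1 was listed. The lists carry no value per library, so the values below are the authors' own -log10 adjusted p.

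A Csf1r site in an intron, 3072 bp after the start, was more open in exudate than in blood (4.69) and bone marrow (5.29) and in membrane than in blood (2.68) and bone marrow (3.08), in the authors' deposited table. It was open in the pouch, where Csf1r had 0 to 547 reads per library. The App introns held 2 sites, 24893 and 27718 bp after the start, that were more open in exudate than in bone marrow (10.9 and 4.83) and in membrane than in bone marrow (7.66 and 5.14) in the authors' deposited table. The Basp1 start itself was more open in membrane than in bone marrow (4.38), per the authors' deposited table. Of the Plbd1 sites, those centred at -9832 and -13197 bp from the start were less open in exudate (5.94 and 3.32), membrane (7.19 and 3.78) and blood (2.3 and 2.27) than in bone marrow in the authors' deposited table, and one 3104 bp after the start was less open in exudate than in blood (2.26) and more open in membrane (2.45) and blood (3.05) than in bone marrow. The strongest values stood within the annotated span of Cx3cr1, at an intron site 67625 bp after its start. That site was more open in exudate (28.4), membrane (20.4) and blood (4.44) than in bone marrow, in the authors' deposited table. The authors gave Csrnp1 as its nearest gene, and Csrnp1, Xirp1 or Gorasp1 for every listed site counted here for Cx3cr1. None of these sites can be assigned to Cx3cr1 from its position in the span. The annotated Cx3cr1 gene spans a long region, and no listed site lay within 10000 bp of the Cx3cr1 start. Beside these, open sites lay at the start of Csf1r, Fn1, Cd68, Basp1, App and Plbd1, of which the Basp1 site alone was listed as different between tissues.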

How the data were processed

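RNA was sequenced from mouse neutrophil cultures and sorted neutrophils, and open chromatin was measured by ATAC-seq in sorted neutrophils. Per the file headers, the authors counted read pairs per gene with featureCounts 1.5.0-p2 or 1.6.3, and the deposited counts were raw. STAR, cutadapt, Bowtie2, MACS2, deepTools and DESeq2 are named in the submitters' processing notes. The deposited lists of differential open sites give the authors' -log10 adjusted p, and the deposited merged sites carry a score of unstated scale that was not used.

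From the counts, genes were kept with edgeR's filter (minimum count 10, minimum total 15), scaled with TMM and fitted with edgeR 4.0.16 (R 4.3.3) by the quasi-likelihood test over all groups of a table, with Benjamini-Hochberg adjustment over all genes. Fitted were 12330 genes for the tissues, 12899 for set 1, 13779 for set 2 and 14177 for a later table that repeats the set 2 libraries and adds RUNX1-/- and KLF6-/-. The level of TPM was computed from the deposited counts and exon lengths. Genes with 0 reads were set against a floor of 3 reads per group. In set 1, 18 columns matched no sample and were not used.

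The 9 genes, the lists and the named genes were chosen with earlier results of these data known. Because some of the 9 were chosen for being lower in knockout lines, their knockout values carry no test. Of each list, up to 4 called genes with the largest change per comparison were to be named, and further genes named were chosen after their values were seen. Some genes that this rule or the likeness rule picks are not reported here. The labels do not say that replicates came from separate cultures, so p-values measure only the spread between these libraries. Replicates of every culture group differed by more than sampling noise (chi-square per degree of freedom 1.65 to 4.93). The test was checked on simulated data. Alternatives were DESeq2 1.42.0, RLE factors, total-count scaling, no filter, the compared groups alone, a 2-fold threshold, replicate blocks and leaving out each library.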

Additional observations from a re-analysis of the deposited data

Results flagged for a closer look

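Of 17 combinations of a gene with exudate or blood, 6 had 1 library that stood far from the others. If levels were normally distributed, chance alone would do this in about 1 in 20 groups. The levels here can be far more skewed: Ccr2 had 228 of its 229 exudate reads in 1 library. How often chance does this with such counts was not tested, so no excess over chance is read from the 6. The 17 also share the same 5 exudate and 5 blood libraries and are not independent. In blood the highest library reached 141.4 CPM for Csf1r, 26.56 CPM for Cx3cr1, 2.18 CPM for Fn1 and 1196 CPM for Plbd1. In exudate the highest library reached 17.39 CPM for Ccr2 and 0.9734 CPM for Fn1.

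In 8 cases both libraries of a knockout line moved one way with zymosan and both WT libraries the other way, and the difference was not tested. For Csf1r the response in the line minus that in WT was 0.51 on the log2 scale in CEBPB-/-, 1.09 in JUNB-/-, 0.79 in IRF5-/- and 0.35 in RELB-/- cells. For Cx3cr1 it was 2.81 in CEBPB-/-, 3.51 in JUNB-/- and 1.77 in IRF5-/- cells, and for Basp1 it was -2.26 in JUNB-/- cells. With total-count scaling the rise of Csf1r in CEBPB-/-, IRF5-/- and RELB-/- cells and of Cx3cr1 in IRF5-/- cells turned into a fall.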

How the results depend on the processing

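Total-count scaling, chosen after seeing the data, changed most, and the cause was not tested. It turned the knockout values of Ccr2 in CEBPB-/- with DMSO (-0.26), Cx3cr1 in RUNX1-/- with DMSO (0.02), Csf1r in CEBPB-/- (-0.19) and IRF5-/- (-0.04) and Cx3cr1 in CEBPB-/- (-0.31) and IRF5-/- (-0.09) with zymosan. It turned the zymosan values of Csf1r in CEBPB-/- (-0.62), IRF5-/- (-0.17) and RELB-/- (-0.56), Cx3cr1 in IRF5-/- (-0.3), Fn1 in IRF5-/- (-0.25), JUNB-/- (-0.2) and WT set 2 (-0.11), App in RELB-/- (-0.07), Ly86 in WT set 2 (-0.87) and Plbd1 in WT set 1 (-0.26) and set 2 (-0.69). The median knockout change of the 9 genes moved to -4.43 in CEBPB-/-, -4.66 in JUNB-/-, -4.99 in IRF5-/-, -1.75 in RUNX1-/- and -2.78 in KLF6-/- cells with DMSO, against -4.08, -4.11, -4.88, -2.08 and -2.64, and to -3.78 in CEBPB-/-, -3.82 in JUNB-/- and -4.9 in IRF5-/- cells with zymosan, against -3.21, -3.3 and -4.72. Zymosan calls among the 9 fell to 4 in CEBPB-/- and 4 in IRF5-/- cells, against 7 in each.

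With zymosan the median was -3.26 without the filter and -3.29 with the compared groups alone in CEBPB-/-, -3.4 with the compared groups alone in JUNB-/-, and -2.09 with DESeq2 and with RLE factors in RELB-/- cells, against -2.16. DESeq2 called 3 of the 9 in exudate and 1 in blood against bone marrow, where edgeR called 0. A 2-fold threshold left 5 zymosan calls in WT set 1 (against 8), 4 in IRF5-/-, 4 in JUNB-/- and 3 in RELB-/- cells (against 7 each). Of the list genes called against WT it left, with DMSO, 30 of 57 in CEBPB-/-, 38 of 59 in JUNB-/-, 23 of 53 in IRF5-/-, 24 of 53 in RELB-/-, 27 of 56 in RUNX1-/- and 25 of 54 in KLF6-/-, and with zymosan 28 of 59, 29 of 58, 18 of 56 and 17 of 50 in the first 4 lines. Of those called for zymosan it left 24 of 45 in CEBPB-/-, 25 of 46 in JUNB-/-, 22 of 47 in IRF5-/-, 23 of 47 in RELB-/-, 21 of 55 in WT set 1 and 18 of 50 in WT set 2. Spearman's correlation shared 5 of 24 likeness genes, and a window of 10000 bp held 4 listed sites against 21.

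Leaving out 1 library moved the median with DMSO between -4.16 and -3.97 in CEBPB-/-, -4.16 and -4.01 in JUNB-/-, -4.94 and -4.71 in IRF5-/-, -2.15 and -2.0 in RUNX1-/- and -2.82 and -2.48 in KLF6-/- cells, and with zymosan between -3.27 and -3.02 in CEBPB-/-, -4.89 and -4.54 in IRF5-/- and -2.32 and -1.88 in RELB-/- cells. Same-numbered culture replicates did not deviate together (r from -0.0368 to 0.0373). The replicate block changed no call of the 9 genes: it gave 7 zymosan calls in each line, 8 in WT set 1 and 6 in set 2. The tissue columns carry a tag and an m number that recur between tissues, and the labels do not say what either marks. Over 11 pairs of libraries with the same tag and number, the deviations from the tissue means did not go together (r from -0.0262 to 0.0739), and a replicate block of these numbers, added after seeing the data, left 0 of the 9 genes called in all 6 tissue comparisons.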
